A study of Rattus norvegicus with 9 samples.

Results

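The 9 genes Gdnf, Gfra1, Gfra2, Ret, Bdnf, Ntf3, Ntrk2, Ntrk3 and Ngfr encode ligands and receptors of the GDNF and neurotrophin systems. They were taken by symbol from the annotation of the array, and all 9 were found among the 10411 genes that had a probe set with that symbol alone. They had 16 of the 15866 probe sets tested. The brightest probe set of each gene, by its mean over the 9 arrays, gave its value, and the further ones were used as a check. Expression had been measured in rat ventral midbrain, once as cultured cells and once as fresh tissue. MesPC were primary cultures of dissociated ventral midbrain from embryonic day 11, kept in vitro for 9 days (6 arrays). MesE11 was the ventral midbrain itself at embryonic day 11, each sample a pool of dissected tissue (3 arrays). Per the labels, embryos of 4 pregnant rats were mixed into 3 groups that were handled separately and each gave tissue and duplicate cultures. No strain, genotype or drug treatment is given for either group. The labels speak of 3 independent culture samples while 6 culture arrays were deposited, so the 6 may hold fewer than 6 independent cultures, and a p-value reflects the scatter of these arrays alone. The question, by the series title, is how far cultured cells and the embryonic mesencephalon differ.

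GDNF is a secreted factor known for keeping midbrain dopaminergic neurons alive. It binds the GPI-anchored co-receptor GFRα1, and the pair then activates the receptor kinase RET. GFRα2 serves the related ligand neurturin in the same way. Neurotrophins act through Trk kinases, BDNF mainly through TrkB (Ntrk2) and neurotrophin 3 mainly through TrkC (Ntrk3), while the p75 receptor (Ngfr), which has no kinase, binds every neurotrophin and also their uncleaved precursors. Ntrk2 is known to give rise to a full-length kinase receptor in neurons and to truncated receptors without the kinase, which are abundant in astrocytes.

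The promoters of the ligand Gdnf, its co-receptor Gfra1 and the kinase Ret are shown because these 3 genes form 1 receptor complex and differed between the groups in both directions. Promoter entries were found for 5 of the 9 members (Gdnf, Gfra1, Ret, Bdnf and Ntf3), from RefSeq with the build GRCr8. Each sequence runs 5′ to 3′ from 250 bases before the annotated start to 50 bases after it. Capitals mark the GC box GGGCGG and the CRE core TGACG, searched on both strands. The motifs can share an end letter, which happened in none of the windows shown.
Gdnf promoter, chr2:58621077-58621376 (plus strand): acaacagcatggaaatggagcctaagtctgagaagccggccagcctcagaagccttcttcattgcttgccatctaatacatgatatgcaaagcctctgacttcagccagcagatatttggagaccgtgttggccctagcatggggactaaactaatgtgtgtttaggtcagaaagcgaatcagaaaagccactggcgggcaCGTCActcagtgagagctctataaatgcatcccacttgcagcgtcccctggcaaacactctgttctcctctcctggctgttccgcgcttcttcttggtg
Gfra1 promoter, chr1:267555762-267556061 (minus strand): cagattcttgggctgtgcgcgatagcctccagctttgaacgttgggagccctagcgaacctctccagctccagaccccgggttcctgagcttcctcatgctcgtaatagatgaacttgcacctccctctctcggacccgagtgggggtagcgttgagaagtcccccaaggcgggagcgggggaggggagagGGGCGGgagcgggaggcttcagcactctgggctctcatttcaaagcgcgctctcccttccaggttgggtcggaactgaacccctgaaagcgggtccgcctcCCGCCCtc
Ret promoter, chr4:153040507-153040806 (minus strand): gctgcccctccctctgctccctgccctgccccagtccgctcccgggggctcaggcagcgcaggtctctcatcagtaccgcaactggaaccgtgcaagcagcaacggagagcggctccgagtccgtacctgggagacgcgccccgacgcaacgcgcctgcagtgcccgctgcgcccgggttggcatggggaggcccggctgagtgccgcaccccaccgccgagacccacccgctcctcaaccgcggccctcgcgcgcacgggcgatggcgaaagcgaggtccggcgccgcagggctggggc
The Gdnf window held 1 CRE core and 0 GC boxes, the Gfra1 window 2 GC boxes and 0 CRE cores, and the Ret window neither. Of 33469 rat promoter windows of the same length, 33.1% held a GC box and 21.2% a CRE core. CG dinucleotides numbered 8 in the Gdnf window, 19 in Gfra1 and 35 in Ret, against a median of 7 over all windows. These counts describe the printed windows and nothing was drawn from them about any factor.

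The values are log2 intensities from RMA, which combines background correction, normalization between arrays and a summary over the probes of a set. Differences are MesPC minus MesE11 on that scale, ± the standard error from limma's moderated test (6 and 3 arrays), and the adjusted p is that test's, by the Benjamini-Hochberg method over all 15866 probe sets with a threshold of 0.05. Precision is limited by how many arrays there are. The culture arrays formed 2 sets, replicates 1 to 3 and replicates 4 to 6. Pearson's r over all probe sets, which are not independent replicates, ran from 0.997 to 0.998 inside each set but only from 0.982 to 0.987 across sets, and the labels name nothing that parts them. Each result is therefore also given for these sets. Control probe sets for bacterial genes read 4.80 to 6.68 and serve as a guide to background. In bulk RNA, fewer cells of a type and less RNA per cell cannot be told apart.

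In culture, 2 of the 9 genes were higher than in embryonic midbrain, namely the receptors Ngfr and Ret. Lower were 5 genes, the ligands Gdnf, Bdnf and Ntf3 and the receptors Gfra1 and Ntrk3, while Gfra2 and the brightest probe set of Ntrk2 did not pass the test. Over all 10411 genes, 21.9% were called higher and 22.7% lower. The count of 2 higher thus stood near the background, and the count of 5 lower was above it. Of the 16 probe sets, 2 were higher and 8 lower, against 19.7% and 22.5% of all probe sets. With culture arrays 1 to 3 alone 3 genes were higher (Ngfr, Ret and Ntrk2) and 4 lower (Gfra1, Bdnf, Ntf3 and Ntrk3), against 25.7% and 27.0% of all genes. With arrays 4 to 6 alone 2 were higher (Ngfr and Ret) and 4 lower (Gdnf, Gfra1, Bdnf and Ntrk3), against 22.9% and 27.2%. The rises were of 2-fold or more for both genes, against 3.63% of all genes, and the falls were 1.40-fold or smaller, so that 0 members were lower by 2-fold, against 2.13% of all genes. All 6 culture arrays lay above all 3 tissue arrays for 2 members, against 21.1% of all genes, and below them for 5, against 23.3%. With the tissue arrays and both culture sets as random blocks, the 2 rises still passed and 0 of the 5 falls did, where 13.2% of all genes were higher and 9.11% lower. All tissue arrays shared a block and the culture arrays formed 2, so this check cannot measure the spread between independent samples.

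**Figure D1:**
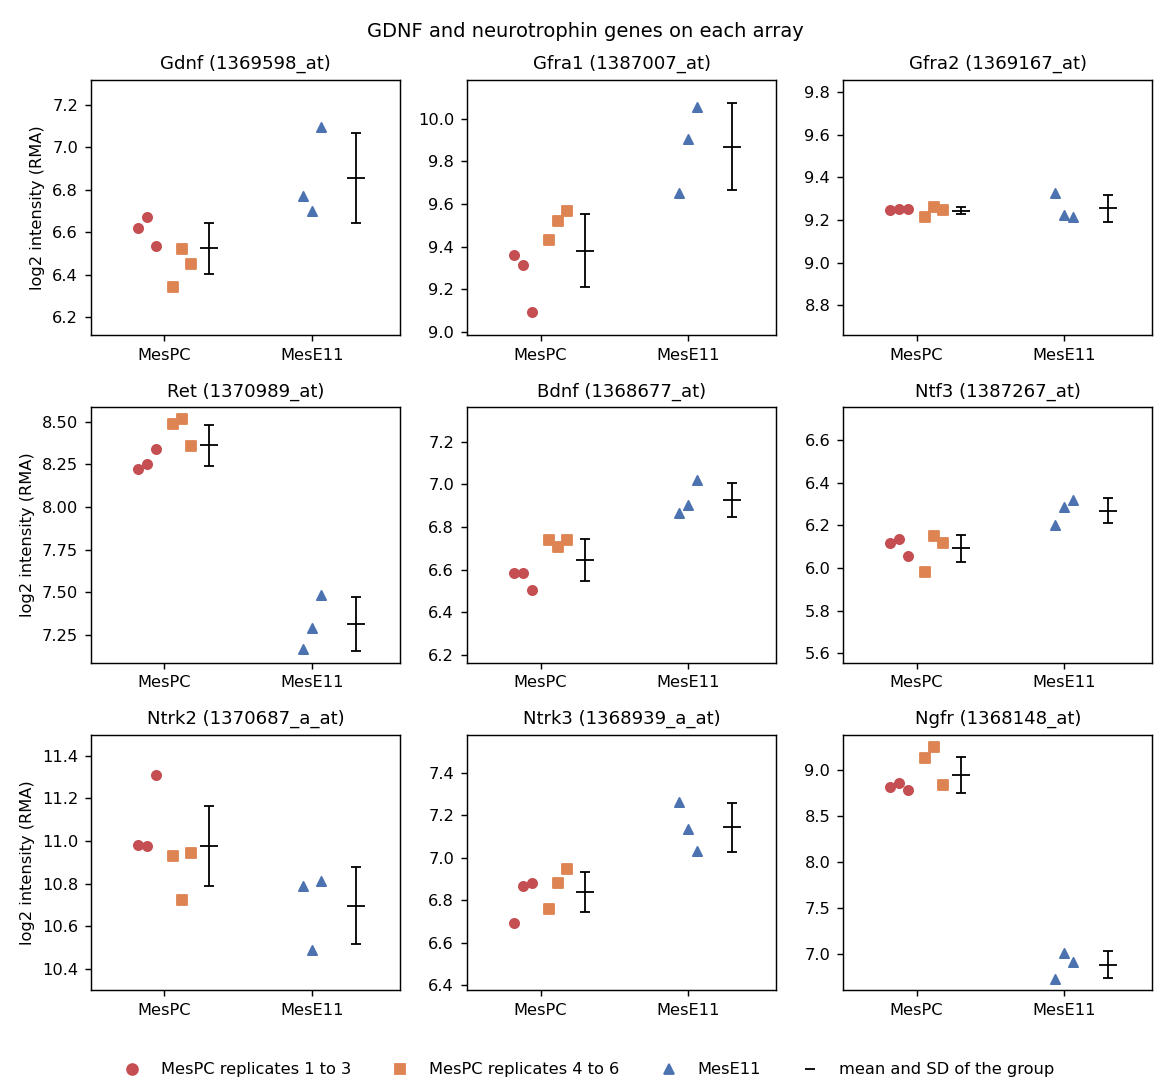
Log2 intensity (RMA) of the brightest probe set of each gene, with a point for each array, MesPC on the left and MesE11 on the right of each panel, and the mean and SD of the group beside the points. Ngfr and Ret sit higher in all 6 culture arrays, Gfra1, Gdnf, Bdnf, Ntf3 and Ntrk3 sit lower in all 6, and the axes differ between panels.

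Gdnf, the ligand, read 6.62, 6.67, 6.54, 6.34, 6.52 and 6.45 in MesPC replicates 1 to 6, against 6.77, 6.70 and 7.09 in MesE11 replicates 1 to 3. Every culture array lay below every tissue array, but the lowest tissue array was only just above the highest culture array, and all 6 culture values were no higher than the brightest bacterial control. Gdnf averaged 6.52 ± 0.12 in MesPC and 6.85 ± 0.21 in MesE11 (SD, n = 6 and 3), a difference of −0.33 ± 0.10 (limma, adjusted p = 0.0225). Without MesE11 replicate 3, the highest array, the difference was −0.21 (adjusted p = 0.104), and with MesPC replicates 1 to 3 alone it was −0.25 (adjusted p = 0.0659).

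Gfra1, the co-receptor that binds GDNF, read 9.36, 9.31, 9.09, 9.43, 9.52 and 9.57 in the culture arrays, against 9.65, 9.91 and 10.05 in tissue. The groups did not overlap, and culture arrays 1 to 3 were the lowest. Gfra1 fell by 0.49 ± 0.11 on the log2 scale, 1.40-fold (adjusted p = 0.00761). Its further probe set 1367954_at read 8.42, 8.43, 8.42, 8.05, 8.19 and 8.43 in culture, against 8.51, 8.83 and 8.84 in tissue, and fell by 0.40 ± 0.11 (adjusted p = 0.0160). Both probe sets thus moved the same way, although on the further one arrays 4 and 5 were the lowest, and it did not pass without MesE11 replicate 2 (adjusted p = 0.0674) or 3 (0.0765). Gfra1 was the single faller that passed under quantile normalization, and with the random block it did not (adjusted p = 0.0703).

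Gfra2, the co-receptor of neurturin, read 9.25, 9.25, 9.25, 9.22, 9.26 and 9.25 in culture, against 9.33, 9.22 and 9.21 in tissue. Its groups overlapped, and the difference of −0.01 ± 0.05 had a 95% interval from −0.11 to 0.09 (adjusted p = 0.876). The further probe set, 1375359_at, differed by 0.01 ± 0.10 (adjusted p = 0.949), with both means, 6.35 in MesPC and 6.35 in MesE11, within the range of the bacterial controls.

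Ret, the kinase shared by the GDNF family, read 8.22, 8.25, 8.34, 8.49, 8.52 and 8.36 in culture, against 7.17, 7.29 and 7.48 in tissue. All 6 culture arrays were well above the tissue arrays, and those numbered 4 to 6 were slightly above those numbered 1 to 3. Ret averaged 8.36 ± 0.12 in MesPC and 7.32 ± 0.16 in MesE11 (SD, n = 6 and 3), a rise of 1.05 ± 0.09 or 2.07-fold (adjusted p = 1.53e-05, and 3.44e-04 with the random block). It rose by 0.96 with culture arrays 1 to 3 alone and by 1.14 with 4 to 6 alone. The 2 further probe sets of Ret did not pass. Probe set 1388208_a_at averaged 7.23 in MesPC and 7.22 in MesE11 (difference 0.00 ± 0.05, adjusted p = 0.966), and 1371112_at averaged 6.75 in MesPC and 6.63 in MesE11 (difference 0.12 ± 0.10, adjusted p = 0.337). The rise was thus read by 1 of 3 probe sets, and their mean rose by 0.39 (adjusted p = 5.75e-04). Which transcripts each of them reads was not matched here.

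Ret is known from dopaminergic neurons, motor neurons and neural crest derivatives, whose markers were lower in culture or did not pass. All 6 dopaminergic markers measured were lower in culture, with a mean log2 level over the list of 7.59 to 8.38 in culture arrays and 9.43 to 9.48 in tissue arrays. All 5 motor neuron markers were lower as well (6.53 to 6.72 against 7.09 to 7.16), of which Slc5a7 and Chat had both means within the range of the bacterial controls. Of 4 neural crest, sensory neuron and Schwann cell markers, 3 were lower (6.80 to 7.09 against 7.45 to 7.81), and Foxd3 had both means within that range. With the random block, 5 dopaminergic, 3 motor neuron and 1 neural crest marker (Prph) stayed past the threshold. Isl1 and Chat did not (adjusted p = 0.149 and 0.108), nor did Erbb3 and Foxd3 (0.0839 and 0.255). The part of these cell types in the reading of Ret was not tested. By the root mean square difference of centred log2 profiles over the 9 arrays, the genes nearest to Ret were Slc15a2, a peptide transporter, Impact, a translational regulator, and Itm2b, a membrane protein (0.10, 0.11 and 0.11 log2 units, of 10347 genes, predicted loci left out). They rose by 1.01 ± 0.07, 1.02 ± 0.08 and 1.10 ± 0.08.

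**Figure D2:**
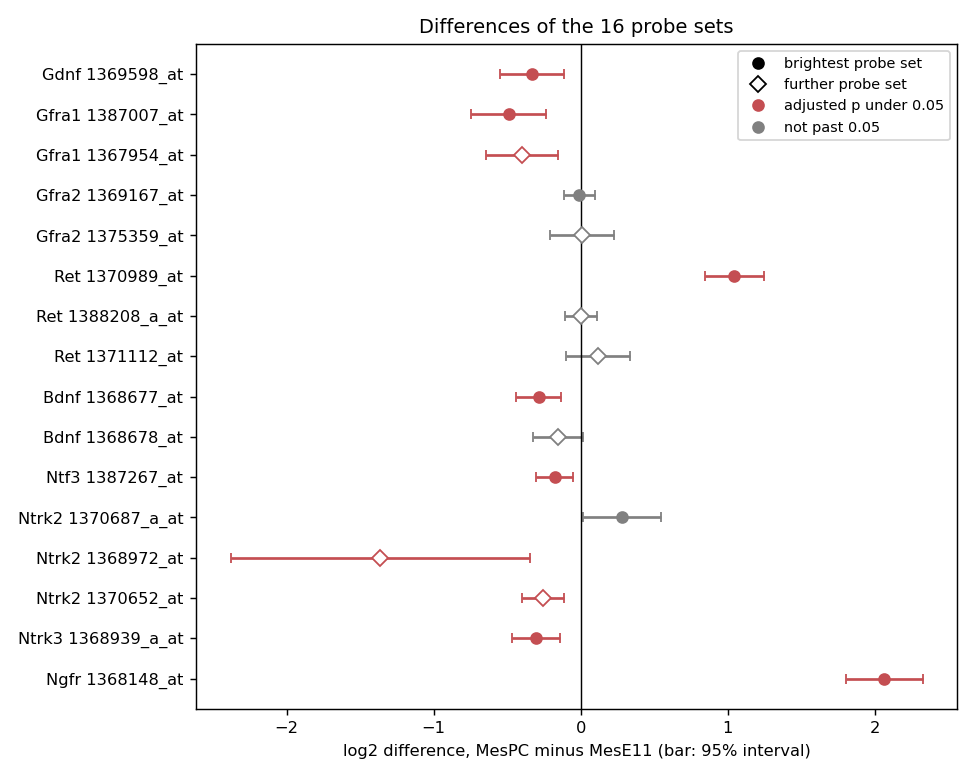
Log2 difference between MesPC and MesE11 for the 16 probe sets, with bars for the 95% interval of limma's moderated test (6 and 3 arrays). Filled circles are the brightest probe set of a gene, open diamonds the further ones, red marks those past an adjusted p of 0.05. Ngfr and 1 of 3 Ret probe sets lie far to the right, and the 3 Ntrk2 probe sets spread from −1.36 to 0.28.

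Bdnf, the ligand of TrkB, read 6.58, 6.58, 6.51, 6.74, 6.71 and 6.74 in culture, against 6.86, 6.90 and 7.02 in tissue. The groups did not overlap, and culture arrays 1 to 3 were lower than arrays 4 to 6. Bdnf fell by 0.29 ± 0.07 (adjusted p = 0.00903), and its further probe set, 1368678_at, differed by −0.15 ± 0.08 without passing (adjusted p = 0.127) at 5.85 in MesPC and 6.00 in MesE11, within the range of the bacterial controls. Ntf3, neurotrophin 3, read 6.12, 6.13, 6.06, 5.98, 6.15 and 6.12 in culture, against 6.20, 6.29 and 6.32 in tissue. Every value of Ntf3 was inside that range in both groups, so that the difference of −0.18 ± 0.06 (adjusted p = 0.0277) was a difference between readings near background. The call of Ntf3 ended without MesE11 replicate 2 (adjusted p = 0.0752) or 3 (0.102) or MesPC replicate 3 (0.0520).

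Ntrk3, the receptor of neurotrophin 3, read 6.69, 6.87, 6.88, 6.76, 6.88 and 6.95 in culture, against 7.26, 7.14 and 7.03 in tissue. Again the groups did not overlap, and the culture sets were alike. Ntrk3 fell by 0.30 ± 0.07 or 1.23-fold (adjusted p = 0.00828). Gdnf, Bdnf, Ntf3 and Ntrk3 were all in the dimmest of 4 equal bins of probe sets. Over the 3967 probe sets of that bin the median difference was −0.11, with 23.7% lower in culture and 3.96% higher, so small falls of dim genes were common. Under quantile normalization these 4 falls shrank to −0.22 (Gdnf), −0.16 (Bdnf), −0.06 (Ntf3) and −0.19 (Ntrk3) and none passed (limma, adjusted p from 0.0524 to 0.351).

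Ngfr, the p75 receptor, had the largest change of the 9 genes. It read 8.81, 8.87, 8.78, 9.14, 9.26 and 8.83 in culture, against 6.73, 7.01 and 6.91 in tissue. The culture arrays were far above the tissue arrays, which were near the top of the bacterial controls. Ngfr averaged 8.95 ± 0.20 in MesPC and 6.88 ± 0.14 in MesE11 (SD, n = 6 and 3), a rise of 2.07 ± 0.12 or 4.19-fold (adjusted p = 1.09e-06, and 1.68e-05 with the random block). It rose by 1.94 with culture arrays 1 to 3 alone and by 2.19 with 4 to 6 alone.

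Ngfr is known from neural crest derivatives, Schwann cells and some mesenchymal and perivascular cells. Of 10 fibroblast and mural cell markers, 8 were higher in culture and 1 lower. Their mean log2 level was 10.04 to 10.37 in culture arrays and 7.81 to 8.05 in tissue arrays. Col3a1, Lum and Col1a2 differed by 5.56, 5.26 and 4.28. The mural cell markers were mixed. Rgs5 was the lower one, at −2.27 (limma, adjusted p = 7.86e-08), and Acta2 did not pass (−0.04, 0.774). Tagln and Pdgfrb were higher, by 2.21 and 0.37, but Pdgfrb did not pass with the random block (adjusted p = 0.0606). The neural crest and Schwann cell markers Sox10, Foxd3 and Erbb3 differed by −0.34, −0.20 and −0.38. Of these, Foxd3 and Erbb3 passed, though not with the random block. The part of these cell types in the rise of Ngfr was not tested. The nearest profiles were those of Col4a2, a basement membrane collagen, Add3, a membrane skeleton protein, and Plat, tissue plasminogen activator (0.12, 0.14 and 0.17 log2 units). They rose by 2.11 ± 0.06, 1.96 ± 0.08 and 2.09 ± 0.09.

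Ntrk2, the TrkB receptor, gave probe sets that disagreed. The brightest, 1370687_a_at, read 10.98, 10.98, 11.31, 10.93, 10.72 and 10.94 in culture, against 10.79, 10.49 and 10.81 in tissue. Of the 6 culture arrays 5 lay above all tissue arrays, all but MesPC replicate 5, and the difference of 0.28 ± 0.12 did not pass (95% interval from 0.02 to 0.54, adjusted p = 0.0786). It passed without that array (0.33, adjusted p = 0.0384).

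Probe set 1368972_at of Ntrk2 moved the other way. It read 8.07, 7.81, 8.05, 9.61, 9.65 and 9.61 in culture, against 10.24, 10.16 and 10.08 in tissue. Culture arrays 1 to 3 were far below arrays 4 to 6, and both sets were below tissue. It fell by 1.36 ± 0.46 (adjusted p = 0.0366), by 2.19 with arrays 1 to 3 alone (adjusted p = 4.57e-08) and by 0.54 with arrays 4 to 6 alone (adjusted p = 1.01e-04). With both sets in the fit, the call ended without any 1 of the 3 tissue arrays (adjusted p = 0.103, 0.0905 and 0.0941 without replicates 1, 2 and 3) or of MesPC replicates 1 to 3 (0.0629, 0.0506 and 0.0612). The dimmest probe set, 1370652_at, fell by 0.26 ± 0.06 (adjusted p = 0.0103) between readings within the range of the bacterial controls (5.80 in MesPC and 6.05 in MesE11). The mean of the 3 probe sets fell by 0.45 (adjusted p = 0.0259), opposite to the brightest one. The annotation lists a reference sequence of its own for each of them, but which TrkB form each reads was not matched here.

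**Figure D3:**
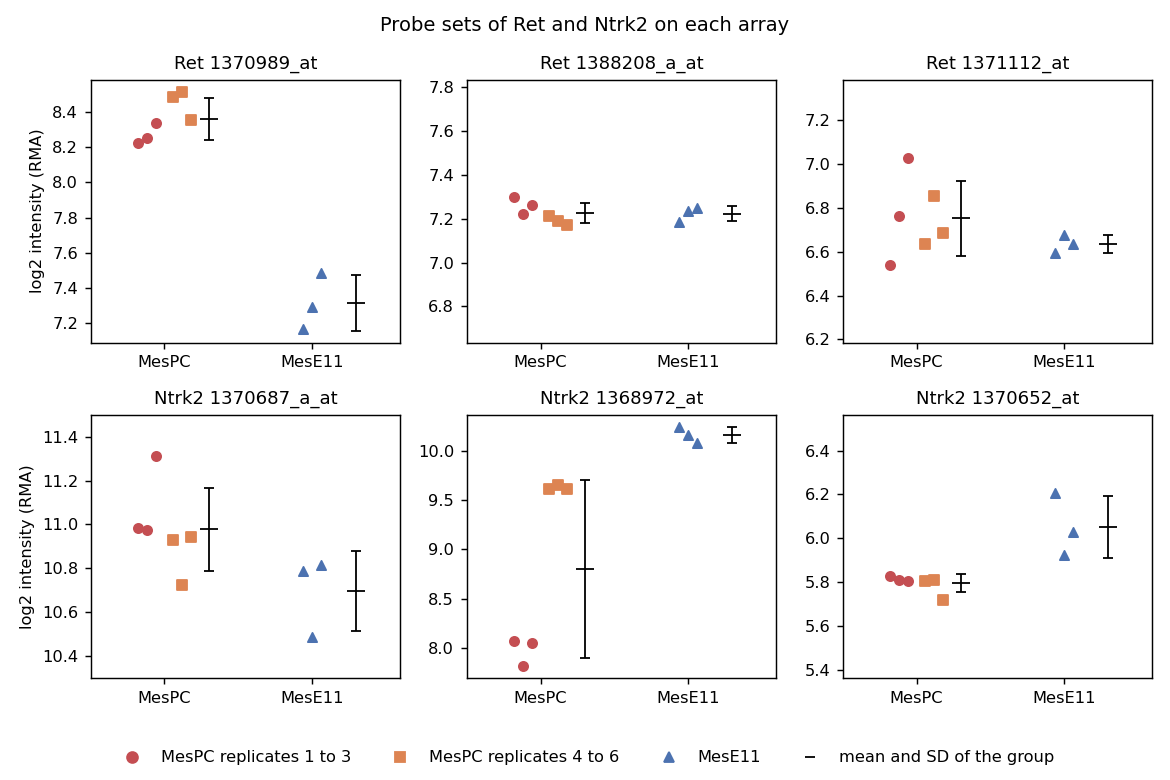
Log2 intensity (RMA) on each array for the 3 probe sets of Ret (top) and of Ntrk2 (bottom), MesPC left and MesE11 right in each panel, with the mean and SD of the group. Of the Ret panels the first separates the groups and the other 2 do not. In the last 2 Ntrk2 panels all 6 culture arrays lie below all 3 tissue arrays, and the middle one shows culture arrays 1 to 3 at 7.81 to 8.07, arrays 4 to 6 at 9.61 to 9.65 and tissue at 10.08 to 10.24.

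Markers of neurons and of astrocytes moved beside these probe sets. Of 7 pan-neuronal markers, 5 were lower in culture and 0 higher, and their mean log2 level was 10.16 to 10.40 in culture arrays 1 to 3, 11.21 to 11.26 in arrays 4 to 6 and 11.81 to 11.93 in tissue. This is the order of 1368972_at. Of 10 astrocyte and radial glia markers, 5 were higher and 0 lower, with mean levels of 10.60 to 10.66, 10.41 to 10.47 and 9.66 to 9.92 in the same 3 sets of arrays. That order is the one of the means of 1370687_a_at, 11.09, 10.87 and 10.70. Its differences between the culture sets and between arrays 4 to 6 and tissue did not pass (limma, adjusted p = 0.106 and 0.173). The order was not particular to astrocyte markers. Fibroblast and mural cell markers had it (10.25 to 10.37, 10.04 to 10.12 and 7.81 to 8.05), as did oligodendrocyte lineage markers (8.46 to 8.49, 7.81 to 7.94 and 7.73 to 7.79). With arrays 1 to 3 alone, 7 astrocyte markers were higher and 1, Aldh1l1, lower. The part of any of these cell types in the readings of Ntrk2 was not tested.

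Between the culture sets, MesPC replicates 1 to 3 against 4 to 6, 0 of the 9 genes were higher in arrays 1 to 3, against 17.3% of all genes, and 2 were lower, against 18.3%. Over the 16 probe sets 1 was higher and 3 lower, against 16.8% and 17.3% of all probe sets. Gfra1 was lower in arrays 1 to 3 by 0.25 ± 0.08 (9.26 ± 0.14 and 9.51 ± 0.07, SD, n = 3 each; limma, adjusted p = 0.0314) and Bdnf by 0.17 ± 0.05 (6.56 ± 0.04 and 6.73 ± 0.02; limma, adjusted p = 0.0347). Both calls depended on single arrays. That of Bdnf ended without any 1 of the 6 arrays (adjusted p from 0.0545 to 0.124), and that of Gfra1 without MesPC replicate 2, 3, 5 or 6 (0.0542, 0.109, 0.0934 and 0.0844). With the mean of all probe sets of a gene neither passed, at −0.03 for Gfra1 and −0.05 for Bdnf (adjusted p = 0.804 and 0.483). Ret and Ngfr were lower in arrays 1 to 3 by 0.18 and 0.26 without passing (adjusted p = 0.0512 and 0.0653). Without MesPC replicate 6 both passed, with differences of −0.23 and −0.38 (adjusted p = 0.0208 and 0.00358). Among the further probe sets, 1368972_at of Ntrk2 differed by −1.65 ± 0.07, 3.13-fold (adjusted p = 6.69e-07), and the dim 1375359_at of Gfra2 by 0.23 ± 0.06 (adjusted p = 0.0140). An exact test of 3 arrays against 3 cannot go below 0.10, and since the labels name no condition, these values describe the arrays alone. On the brightest probe sets of Gfra1 and Bdnf and on 1368972_at of Ntrk2, the mean was lowest in culture arrays 1 to 3, higher in arrays 4 to 6 and highest in tissue. The further probe sets had the sets the other way round, at 8.42 in arrays 1 to 3 and 8.22 in arrays 4 to 6 for 1367954_at of Gfra1, and at 5.88 and 5.81 in the same order for 1368678_at of Bdnf, and neither of these differences passed (limma, adjusted p = 0.108 and 0.381). For Ret and Ngfr, arrays 4 to 6 had the highest mean and tissue the lowest.

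Around the 9 genes, 7 lists of pathway genes held 133 genes, of which 97 were measured. In culture 24 were higher and 19 lower, with a median difference of −0.08, against −0.06 over all genes, so that as a whole they did not stand apart from the background of 21.9% and 22.7%. With the random block 15 were higher and 8 lower, against 13.2% and 9.11% of all genes. With culture arrays 1 to 3 alone the shares of all genes were 25.7% and 27.0%, and with 4 to 6 alone 22.9% and 27.2%. These shares are the background for the counts of each list below. The lists were those of other GDNF family genes, other neurotrophin genes, precursor processing, adaptors and kinases, negative regulators, transcripts known from other cells to follow RET or Trk signalling, and other trophic factors.

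Of 6 other GDNF family ligands and RET co-receptors measured, 0 were higher and 2 lower (median −0.15). With the random block 0 were lower (adjusted p = 0.207 for Nrtn and 0.180 for Gdf15). With culture arrays 1 to 3 alone 0 were higher and 3 lower, and with arrays 4 to 6 alone 2 were higher and 3 lower. Nrtn, neurturin, fell by 0.21 ± 0.06 (adjusted p = 0.0222) and Gdf15, a ligand of another RET complex, by 0.24 ± 0.07 (0.0198), both between means within the range of the bacterial controls. Neither passed under quantile normalization. Nrtn did not pass without MesE11 replicate 2 (adjusted p = 0.0877), nor Gdf15 without replicate 1 (0.0692) or 2 (0.0609).

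Of 11 other neurotrophin ligands and receptor partners, 2 were higher and 3 lower (median −0.06), and 1 and 3 with the random block. With culture arrays 1 to 3 alone 2 were higher and 5 lower, and with arrays 4 to 6 alone 3 and 3. Without MesE11 replicate 3, 1 was higher. Sorcs2, a sortilin family receptor that pairs with p75, rose by 0.81 ± 0.13 (adjusted p = 7.43e-04), with 10.94 to 11.43 in culture and 10.29 to 10.48 in tissue. Lower were Bex1, a small adaptor that binds p75, by 1.30 ± 0.38 (adjusted p = 0.0208), Lingo1, a co-receptor of p75, by 1.03 ± 0.27 (0.0119), and Nradd, a p75-like death domain protein, by 0.56 ± 0.09 (0.00101). The 2 further probe sets of Nradd passed as lower too. Bex1 read 9.37 to 9.54 in culture arrays 1 to 3, 10.78 to 10.88 in arrays 4 to 6 and 11.33 to 11.54 in tissue. Its call ended without any 1 of the tissue arrays (adjusted p = 0.0625, 0.0524 and 0.0768 without replicates 1, 2 and 3). Partners of p75 thus differed in both directions while Ngfr itself rose.

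Genes for cutting neurotrophin precursors included some of the larger rises. Of 11 measured, 3 were higher and 1 lower (median 0.03), against 21.9% and 22.7% of all genes. With the random block 2 were higher and 0 lower, against 13.2% and 9.11%. The count of higher genes was thus near the background. Plat, whose protease makes the plasmin that can cleave the BDNF precursor outside the cell, rose by 2.09 ± 0.09 or 4.25-fold (adjusted p = 2.25e-07), with 11.67 to 11.78 in culture and 9.47 to 9.92 in tissue. Pcsk6, a proprotein convertase, rose by 1.95 ± 0.32 (adjusted p = 0.00107), reading 9.31 to 9.89 in culture arrays 1 to 3, 8.55 in each of arrays 4 to 6 and 6.96 to 7.31 in tissue. Furin, another convertase, rose by 0.40 ± 0.08 (adjusted p = 0.00318), but did not pass with the random block (adjusted p = 0.0529). Plg, plasminogen, fell by 0.23 ± 0.08 (adjusted p = 0.0344), a call that ended without any 1 array other than MesE11 replicate 1 and MesPC replicate 6 (adjusted p from 0.0503 to 0.152).

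Of 29 adaptors and kinases downstream of RET and Trk receptors, 8 were higher and 5 lower (median 0.02), and 7 and 3 with the random block. Without MesE11 replicate 3, 3 were lower. Grb10, an adaptor that binds RET, rose by 0.98 ± 0.07 (adjusted p = 3.07e-06), with 11.74 to 11.97 in culture and 10.82 to 10.92 in tissue. Ptpn11, the phosphatase SHP2, rose by 0.54 ± 0.06 (adjusted p = 6.84e-05) and the kinase Akt2 by 0.50 ± 0.10 (0.00292). Sh2b2, an adaptor of Trk receptors, fell by 1.21 ± 0.29 (adjusted p = 0.00894), with 7.86 to 8.13 in culture arrays 1 to 3, 8.97 to 9.22 in arrays 4 to 6 and 9.68 to 9.84 in tissue. The further probe sets of Ptpn11 (1) and Akt2 (2) did not pass.

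Of 10 negative regulators, 4 were higher and 2 lower (median 0.36), and 1 was higher and 0 lower with the random block. Without MesE11 replicate 1 or 2 the count of higher genes was 2, and that of lower ones was 1 without MesE11 replicate 1 or 3 or MesPC replicate 1, 5 or 6, and 0 without MesE11 replicate 2. Spry1, an inhibitor of receptor kinase signalling, rose by 1.31 ± 0.46 (adjusted p = 0.0434), but it read 10.69 to 11.05 in culture arrays 1 to 3, 9.12 to 9.22 in arrays 4 to 6 and 8.54 to 8.83 in tissue. Removing any 1 tissue array, or MesPC replicate 1, 2 or 3, ended its call (adjusted p from 0.0580 to 0.124), while within either culture set alone it rose, by 2.13 and by 0.49. Lrig1, which dampens RET and other receptor kinases, rose by 0.54 ± 0.11 (adjusted p = 0.00382) and the receptor phosphatase gene Ptprf by 0.40 ± 0.10 (0.00968). The further probe set of Ptprf passed as higher too. With the random block Lrig1 passed (limma, adjusted p = 0.0348), while Spry1 and Ptprf did not (0.0617 and 0.0830). Dusp5, a phosphatase of ERK, fell by 0.26 ± 0.09 (adjusted p = 0.0342), which did not pass without MesE11 replicate 1 or 2 or MesPC replicate 5 or 6 (0.135, 0.0867, 0.0569 and 0.0518).

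Of 14 transcripts on the list for RET or Trk signalling, 2 were higher and 2 lower (median −0.15), and 1 and 2 with the random block. With culture arrays 1 to 3 alone 2 were higher and 4 lower, and with arrays 4 to 6 alone 2 were higher and 8 lower. Egr1, an immediate early factor, rose by 1.04 ± 0.25 (adjusted p = 0.00862), with 9.65 to 9.87 in culture arrays 1 to 3, 8.82 to 8.89 in arrays 4 to 6 and 8.15 to 8.47 in tissue. Cxcr4, a chemokine receptor, rose by 0.32 ± 0.12 (adjusted p = 0.0491), a call that ended without any 1 array other than MesPC replicate 5 or 6 (adjusted p from 0.0501 to 0.215). Its 2 further probe sets passed as higher too, and with the random block the brightest did not pass (adjusted p = 0.225). Npy, neuropeptide Y, fell by 1.71 ± 0.17 or 3.27-fold (adjusted p = 4.40e-05).

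Of 16 other trophic factors and receptors, 5 were higher and 4 lower (median −0.10), and 3 and 0 with the random block. The lower count was 2 under quantile normalization, 0 without the dimmest 40% of probe sets, 2 without MesE11 replicate 1 and 0 without MesE11 replicate 3. Against tissue, arrays 1 to 3 gave a lower count of 3 and arrays 4 to 6 one of 7. The higher count was 3 without MesE11 replicate 1 or 2. Mdk, the heparin-binding factor midkine, rose by 1.93 ± 0.16 or 3.82-fold (adjusted p = 1.16e-05), with 11.98 to 12.59 in culture and 10.19 to 10.59 in tissue. Il6st, the gp130 subunit shared by CNTF and LIF receptors, rose by 1.59 ± 0.08 (adjusted p = 7.29e-07) and Ptprz1, a receptor of midkine and pleiotrophin, by 1.19 ± 0.22 (0.00189), and each of their further probe sets rose too. Erbb3, a neuregulin receptor, fell by 0.38 ± 0.10 (adjusted p = 0.0127), with adjusted p = 0.0556 once MesE11 replicate 3 was removed.

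**Figure D4:**
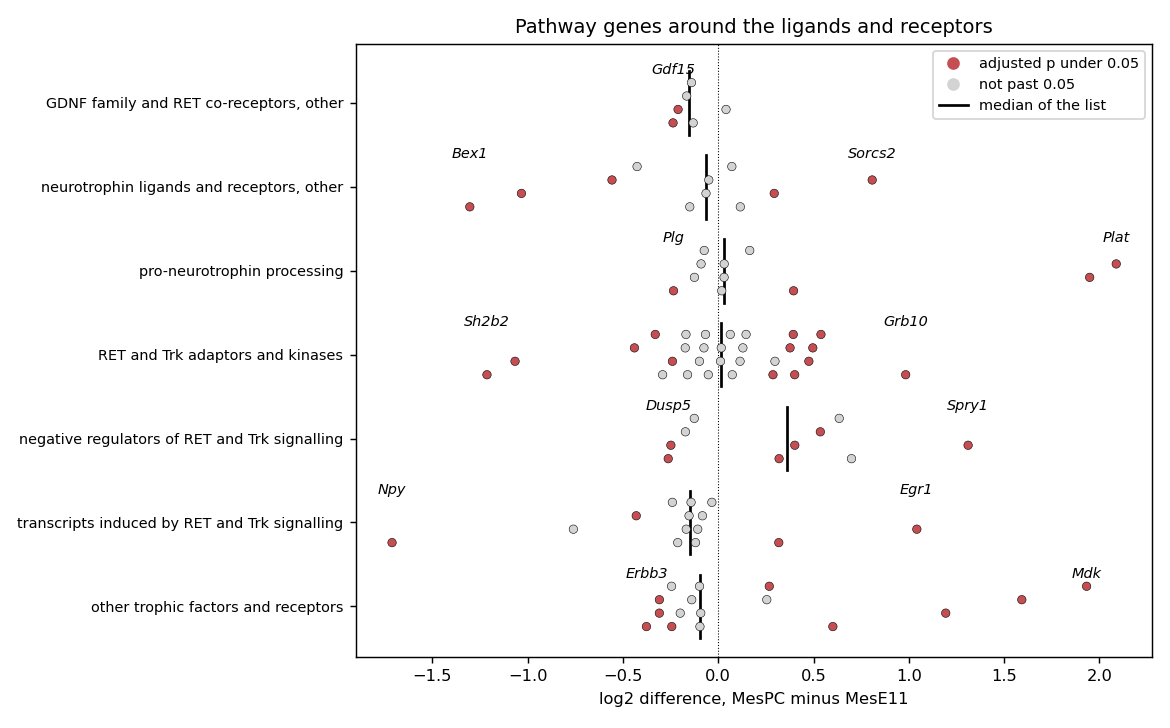
Log2 difference between MesPC and MesE11 for the 97 pathway genes measured, a point for each gene by list, red where the adjusted p was under 0.05, with a bar at the median of the list and names at the outermost points that passed. The medians lie between −0.15 and 0.36, and Plat at 2.09 and Npy at −1.71 are the outermost points.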

How the data were processed

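Total RNA was isolated with Tri-Reagent, labelled with biotin and hybridised to Affymetrix rat arrays, per the labels' protocols. The authors deposited log2 intensities made with RMA, per the submitters' processing notes. Its version is not stated there. Scanner files were not used here.

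From the 15923 probe sets, 57 controls were left out. Of the 15866 tested, 12783 had 1 symbol, 312 several and 2771 were not listed. Entrez numbers of 12754 matched RefSeq's GRCr8 table, which changed 0 symbols. limma 3.58.1 in R 4.3.3 (lmFit, eBayes) compared MesPC with MesE11 over 9 arrays, and the culture sets over 6. Plots used matplotlib 3.10.9. The fit was tested on simulated data with independent noise on each array. It recovered 79.1%, 91% and 98.5% of planted differences of 0.5, 1 and 2 log2 units, with 4 false calls among 183. The simulation held no split between culture sets, so it cannot tell how the fit handles that split. Alternatives were quantile normalization, median centring, a filter on the dimmest 40%, an intensity trend, the mean of probe sets, each array or culture set left out, a random block and a replicate block.

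Members and lists were chosen with earlier results of these data known. Named were all members, up to 3 genes of each list in its main direction and 1 in the other by size of change past the threshold, and the 3 nearest profiles of members that passed at 1.5-fold or more, without predicted loci. Cell type markers came from lists of their own, and those named were not picked by this rule. Pathway genes outside it are marked where they appear.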

Additional observations from a re-analysis of the deposited data

Results flagged for a closer look

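Among the 16 probe sets, 3 had a culture array with a gap to the nearest array that passed Dixon's criterion, which is relative to the range of the 6. They were Gfra2 1369167_at (MesPC replicate 4, the lowest at 9.22, 0.67 of the range), Bdnf 1368678_at (replicate 2, the highest at 5.97, 0.638) and Ntrk2 1370652_at (replicate 6, the lowest at 5.72, 0.778). Such a gap can be small on the log2 scale, and the culture arrays of Gfra2 1369167_at ran only from 9.22 to 9.26. Chance flags about 1 in 20 groups.

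Culture replicates 1 to 3 and 4 to 6 differed from each other on 4 probe sets, by limma's test of the difference between the sets (1 to 3 minus 4 to 6). These were Ntrk2 1368972_at (−1.65), Gfra1 1387007_at (−0.25), Gfra2 1375359_at (0.23) and Bdnf 1368677_at (−0.17). On that of Gfra2, neither set passed against tissue (0.12 and −0.11, limma, adjusted p = 0.275 and 0.343).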

How the results depend on the processing

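The 9 members kept their direction against tissue under all alternatives run on their brightest probe set, except Gfra2, which was at −0.01 and, with an array left out, from −0.030 to 0.027. Without the dimmest 40% of probe sets 1 member was higher and 1 lower, since Ret, Gdnf, Bdnf, Ntf3 and Ntrk3 were then not tested. The count of lower members was 1 under quantile normalization, 0 with the random block (consensus correlation 0.45) and 3 with the replicate block, and 3 to 5 with 1 array left out, 3 without MesE11 replicate 3. The count of higher members was then 2 to 3. The replicate block used replicates 1 to 3 of both groups. Whether the numbers pair the arrays is not stated. Deviations of same-numbered arrays correlated at 0.08, −0.12 and −0.11, and those of differently numbered arrays at −0.18 to 0.26. With 3 arrays on each side, these values cannot decide it. The replicate block called 24 pathway genes higher and 25 lower, and the brightest Ntrk2 probe set rose (0.39, adjusted p = 0.00283). Pathway genes higher were 15 with the random block and 18 to 22 with an array left out. Pathway genes lower were 9 without the dimmest 40%, 31 with MesPC replicates 4 to 6 alone, 8 with the random block and 10 to 20 with an array left out, 11 without MesE11 replicate 2 and 10 without 3. With the mean of all probe sets of a gene, 1 member differed between the culture sets. It was Ntrk2, while Gfra1 (−0.03, adjusted p = 0.804) and Bdnf (−0.05, 0.483) no longer passed. Gfra1 did not pass under quantile normalization either (−0.19, 0.0914), nor Bdnf with median centring (−0.15, 0.0669). With an array left out 0 to 2 differed. The mean of probe sets turned Ntrk2, to −0.45 against tissue and −0.46 between the sets, and quantile normalization turned Ntf3 between the sets (−0.046). With an array left out, set differences ran from −0.0034 to 0.018 for Gfra2, −0.030 to 0.054 for Ntf3 and −0.10 to 0.011 for Ntrk3. Further probe sets near 0 turned as well: Gfra2 1375359_at was at −0.028 with median centring and −0.11 with MesPC replicates 4 to 6 alone (−0.083 to 0.092 with an array left out), and Ret 1388208_a_at at −0.034 and −0.031 (−0.016 to 0.016). Signal near the bacterial controls limits Gdnf, Bdnf and Ntf3. The causes were not tested.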

Other observations

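Pathway genes outside the naming rule, chosen after their values were seen, lay on opposite sides of tissue in the culture sets. For Ncam1, an adhesion molecule that can also bind GDNF, culture arrays 1 to 3 had 9.58 to 9.81 and arrays 4 to 6 had 10.80 to 10.94, against 10.28 to 10.54 in tissue. Its difference from tissue was −0.75 in the first set and 0.42 in the second (limma, adjusted p = 6.17e-05 and 0.00204). Dusp6, the ERK phosphatase, read 11.07 to 11.58, 9.16 to 9.51 and 9.48 to 9.83 in the same order, with differences of 1.59 and −0.33 (limma, adjusted p = 6.00e-06 and 0.0369). Vgf, a neuropeptide precursor induced by neurotrophins, differed by −0.51 and 0.44 (limma, adjusted p = 0.00241 and 0.00618). None of the 3 passed over all 6 culture arrays on its brightest probe set, though 1 of the 2 further probe sets of Dusp6 was called higher.

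The disagreement between probe sets was also measured within arrays, for 2 pairs chosen after their values were seen, so that no test is given. The difference between 1370687_a_at and 1368972_at of Ntrk2 was 2.18 ± 1.03 in MesPC and 0.53 ± 0.21 in MesE11 (SD, n = 6 and 3), with 1.07 to 3.26 over the culture arrays and 0.32 to 0.74 over the tissue arrays. The difference between 1370989_at and 1388208_a_at of Ret was 1.14 ± 0.15 in MesPC and 0.09 ± 0.13 in MesE11.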
